A study of Mus musculus with 3 samples.

Results

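The glucocorticoid-responsive and stress-response genes described here are 9 genes of the 19518 that could be named on the arrays, namely Tsc22d3, Nr3c1, Fkbp5, Sgk1, Per1, Klf9, Ddit4, Dusp1 and Txnip. They were picked by name with earlier results of these arrays known, and each was read from the probe set with the highest mean log2 intensity among those annotated with that gene alone. All 9 genes had a single such probe set, so that the intensity decided nothing. The arrays came from PLZFlu/lu, PLZF+/lu and PLZF+/+ mice, with 1 array for each genotype. PLZF is a transcription factor encoded by Zbtb16, and the luxoid allele (lu) is a point mutation in that gene. The cells were CD4+CD8α− thymocytes of female mice 3 to 4 weeks old on the C57BL/6 background. All 3 genotypes also lacked Rag1 and carried a transgenic Vγ1Vδ6.4 T cell receptor, which yields large numbers of γδNKT cells. The gate used CD4 and CD8α and no stain for PLZF or the receptor, and the sources used here do not say how many mice stand behind an array.

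Intensities are on a linear scale, and differences are on the log2 scale as PLZFlu/lu minus PLZF+/+ unless another pair is named. Since each genotype has 1 array, no difference could be checked against replicates, p-values are not given, and the thresholds of 1.5-fold and 2-fold are rules of size. The small number of arrays limits the precision. The background was described by the 1033 probe sets of olfactory receptor genes, 95% of whose values lay below 108. The deposited values repeat often, and 46.8% of the named genes had the same value on all 3 arrays. Among the 11973 genes above the background level on at least 1 array, 35.7% were lower and 19.6% higher in PLZFlu/lu than in PLZF+/+, the other 44.7% being equal. T cell genes were bright, with Cd3e at 10599 in PLZFlu/lu, 11334 in PLZF+/lu and 10550 in PLZF+/+, and Cd4 at 7191 in PLZFlu/lu, 6208 in PLZF+/lu and 6401 in PLZF+/+.

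Glucocorticoids are steroid hormones of the adrenal cortex that are also made in the thymus. They bind a receptor, encoded by Nr3c1, that is held in the cytoplasm by heat shock chaperones and moves to the nucleus once it carries hormone. There it binds DNA at glucocorticoid response elements and induces a set of genes shared by many tissues, and in developing T cells strong signals of this kind cause death. Several of the induced genes also answer to other inputs, such as stress kinases, glucose, oxygen or the FOXO factors.

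Promoters of 8 of the 9 genes were found in the RefSeq table of the GRCm38.p6 build, as 16 windows of 300 bases that run from 250 bases before a transcript start to 50 after it. They were searched on both strands for AGAACA, which is one arm of the palindromic glucocorticoid response element, for TGACGTCA, the cAMP response element, for TGTTTAC, read by forkhead factors such as FOXO, and for CACGTG, an E-box. Those letters occur in 19.0%, 1.79%, 3.65% and 7.15% of the 32851 windows of all genes. The windows of the genes that differed most between the arrays are shown 5′ to 3′, with matches in capitals. For Sgk1, which has 6 starts, and Tsc22d3, which has 3, the window shown is the one with adjoining arm sites (Sgk1) or with the only arm site (Tsc22d3).
Sgk1, chr10:21993640-21993939, plus strand, GRCm38.p6: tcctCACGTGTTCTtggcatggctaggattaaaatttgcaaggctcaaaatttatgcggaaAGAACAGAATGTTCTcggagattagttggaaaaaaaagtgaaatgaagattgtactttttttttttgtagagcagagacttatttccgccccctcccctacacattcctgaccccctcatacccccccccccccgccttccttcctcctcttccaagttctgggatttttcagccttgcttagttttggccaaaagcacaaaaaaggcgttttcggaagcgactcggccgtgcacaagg
Tsc22d3, chrX:140600473-140600772, minus strand, GRCm38.p6: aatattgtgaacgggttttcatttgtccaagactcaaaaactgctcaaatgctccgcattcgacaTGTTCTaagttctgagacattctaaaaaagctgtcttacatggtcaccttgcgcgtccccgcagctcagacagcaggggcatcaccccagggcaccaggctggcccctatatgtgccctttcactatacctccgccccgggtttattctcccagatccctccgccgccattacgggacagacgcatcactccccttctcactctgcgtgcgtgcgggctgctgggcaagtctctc
Dusp1, chr17:26508423-26508722, minus strand, GRCm38.p6: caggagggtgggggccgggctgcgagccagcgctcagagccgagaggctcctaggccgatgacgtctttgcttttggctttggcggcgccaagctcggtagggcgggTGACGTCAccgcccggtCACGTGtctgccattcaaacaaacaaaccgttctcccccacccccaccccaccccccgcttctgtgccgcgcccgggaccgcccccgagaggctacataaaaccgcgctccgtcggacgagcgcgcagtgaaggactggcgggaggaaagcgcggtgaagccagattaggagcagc
Txnip, chr3:96557707-96558006, plus strand, GRCm38.p6: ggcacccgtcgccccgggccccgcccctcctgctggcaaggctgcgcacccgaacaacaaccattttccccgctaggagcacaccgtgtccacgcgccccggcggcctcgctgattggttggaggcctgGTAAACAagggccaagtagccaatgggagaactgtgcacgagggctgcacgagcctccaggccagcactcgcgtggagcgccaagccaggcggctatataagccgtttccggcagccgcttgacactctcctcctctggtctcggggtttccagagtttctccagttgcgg

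In the Sgk1 window, arm sites on opposite strands begin 189 and 180 bases before the start and together spell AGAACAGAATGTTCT, a full palindromic element. The full letters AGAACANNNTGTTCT, which were looked for after these arm sites had been seen, occur in 3 of the 32851 windows. A further Sgk1 arm site, 242 bases before the start, shares letters with an E-box at 246. The Tsc22d3 window has 1 arm site, at 185 bases. Dusp1 has a cAMP response element 143 bases and an E-box 126 bases before its start, and Txnip has a forkhead match at 121. Arm sites were found in 4 of the 16 windows, beside 19.0% of all windows, and these belong to Sgk1 and Tsc22d3, the genes with the most starts. Fkbp5 and Per1 had an E-box, Klf9 a forkhead match and Ddit4 none of these letters in its window. Such matches are a description of the letters, and no binding was measured here.

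**Figure D1:**
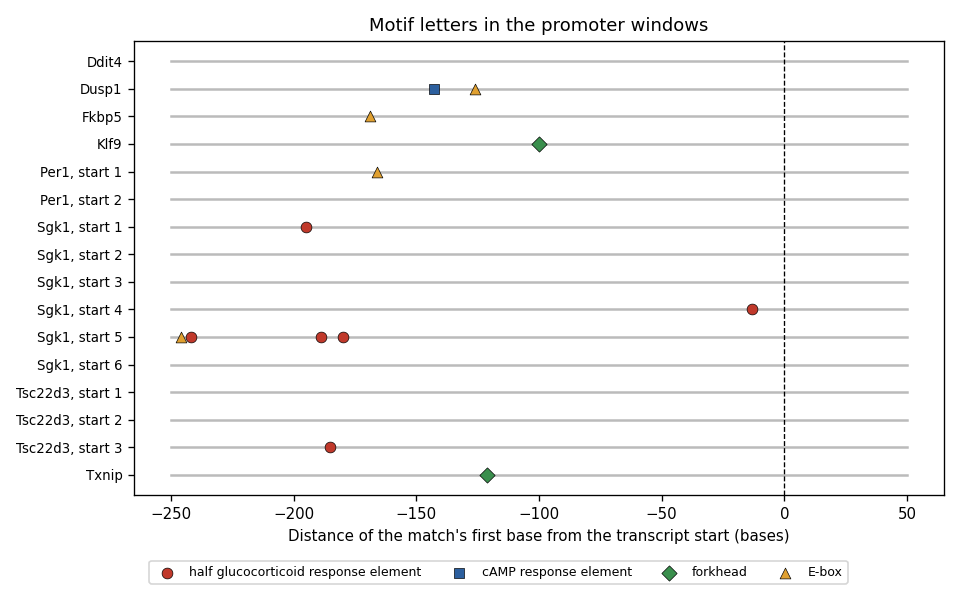
Positions of the searched letters in the 16 promoter windows of 8 genes, on an axis of bases from the transcript start (dashed line), with starts of a gene numbered along the chromosome. Circles are single arms of the glucocorticoid response element, squares cAMP response elements, diamonds forkhead matches and triangles E-boxes; 3 of the 5 Sgk1 circles lie in 1 window.

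Tsc22d3 was the only one of the 9 genes past 2-fold between PLZFlu/lu and PLZF+/+ cells, against 0.430% of all named genes. Past 1.5-fold were Tsc22d3 and Sgk1, both higher, and Dusp1, which was lower. These are 3 of 9 genes, beside 1.43% of all named genes and 2.23% of those above background. The genes were chosen with such values known, so nothing is read from this count. In all, 6 of the 9 were higher and 3 lower in PLZFlu/lu, with a median log2 difference of 0.02, beside 0.00 over all named genes. After quantile normalization Per1 was at 0.00 and no longer lower. Counts of higher, lower and equal genes refer to the values as deposited, since a rescaling separates values that are equal. In cell populations such as these, fewer cells with a transcript and less transcript per cell cannot be told apart.

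**Figure D2:**
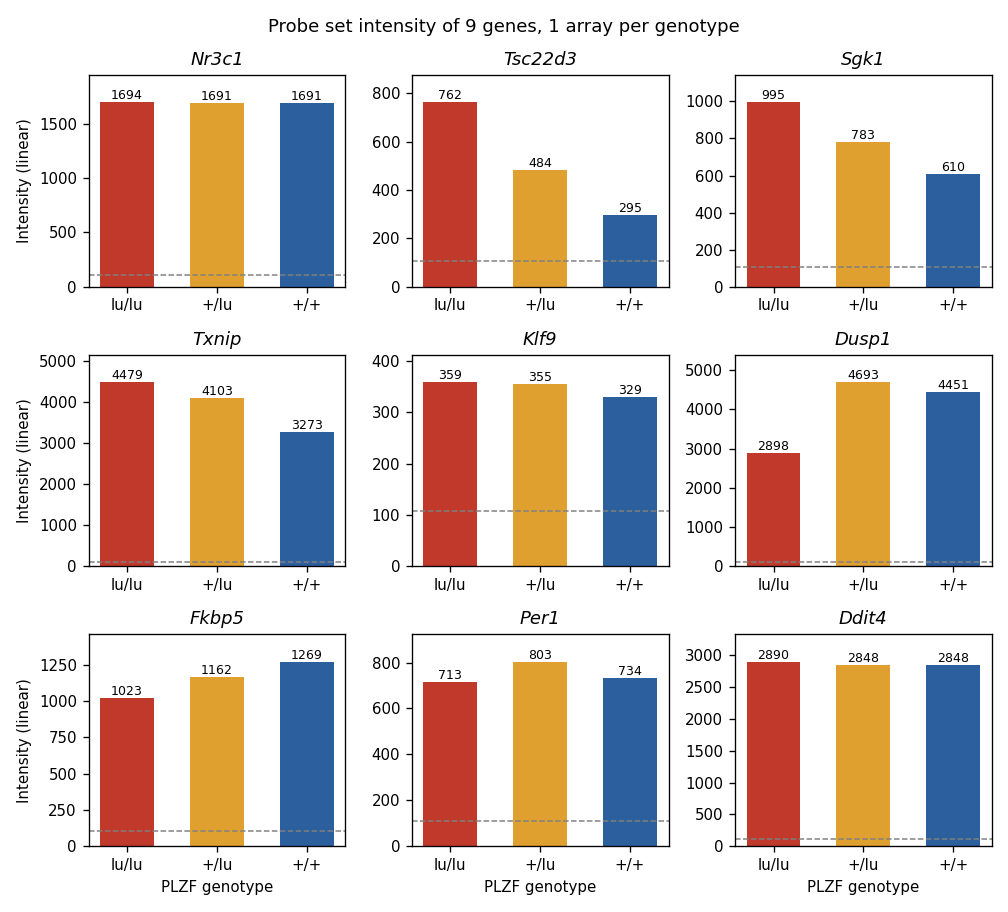
Deposited probe set intensity on a linear axis for PLZFlu/lu, PLZF+/lu and PLZF+/+ cells, 1 array each and so without error bars, with the background level of 108 as a dashed line. Tsc22d3 and Sgk1 step down with each wild-type allele, Dusp1 is lower in PLZFlu/lu than in both other genotypes, and Nr3c1 and Ddit4 are nearly level.

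Nr3c1, the receptor gene, was at 1694 in PLZFlu/lu cells and at 1691 in both PLZF+/lu and PLZF+/+ cells. The value of PLZF+/lu is an exact repeat of that of PLZF+/+, as for many genes in these data, and whether such repeats are measured or arose in the processing was not tested. The log2 difference was 0.00, on arrays where its target Tsc22d3 had the 12th highest difference of all named genes.

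Tsc22d3 encodes GILZ, a small leucine zipper protein that restrains NF-κB and AP-1 and is among the genes most widely induced by glucocorticoids. Its intensity was 762 in PLZFlu/lu, 484 in PLZF+/lu and 295 in PLZF+/+ cells. It was thus 2.58-fold higher in PLZFlu/lu than in PLZF+/+, a log2 difference of 1.37. Each lu allele went with a similar step, 0.71 between PLZF+/lu and PLZF+/+ and 0.65 between PLZFlu/lu and PLZF+/lu. Sgk1, the serum- and glucocorticoid-regulated kinase, was at 995 in PLZFlu/lu, 783 in PLZF+/lu and 610 in PLZF+/+. The difference between the homozygotes was 0.71 on the log2 scale, or 1.63-fold, and again divided evenly, with 0.36 for the first lu allele and 0.34 for the second. Both transcripts were therefore highest in PLZFlu/lu and intermediate in PLZF+/lu.

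Txnip, which binds thioredoxin and limits glucose uptake, was at 4479 in PLZFlu/lu, 4103 in PLZF+/lu and 3273 in PLZF+/+ cells. It was 1.37-fold higher in PLZFlu/lu, and most of the difference lay between PLZF+/lu and PLZF+/+ (0.33 of 0.45 on the log2 scale). Klf9, a Krüppel-like factor induced by glucocorticoids and thyroid hormone, was at 359 in PLZFlu/lu, 355 in PLZF+/lu and 329 in PLZF+/+. Its difference of 0.12 ranked it 3319th by size among the named genes, so that it did not stand out from them.

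Dusp1, a phosphatase that switches off p38 and JNK, is also a classical glucocorticoid-induced gene, but it was lower in PLZFlu/lu. Its intensity was 2898 in PLZFlu/lu, 4693 in PLZF+/lu and 4451 in PLZF+/+ cells. This is 1.54-fold lower in PLZFlu/lu than in PLZF+/+ (-0.62) and -0.70 against PLZF+/lu, while PLZF+/lu and PLZF+/+ differed by 0.08. Dusp1 was therefore low on 1 array only. Its transcript also belongs to the immediate early genes, of which 16 of 23 were lower in PLZFlu/lu and 4 higher, with a median of -0.13. Among all named genes 24.9% were lower and 16.9% higher. Of the 19 immediate early genes above background 15 were lower and 3 higher. Among all genes above background 35.7% were lower and 19.6% higher. Fos, a fellow immediate early gene, had the same order as Dusp1, at 254 in PLZFlu/lu, 369 in PLZF+/lu and 340 in PLZF+/+. Ier5 (-0.61) and Egr1 (-0.52) had the largest differences of that list, and for both PLZF+/lu lay between the homozygotes. Of the 16 lower genes PLZF+/lu was nearer to PLZFlu/lu for 8 and nearer to PLZF+/+ for 8. Handling of the cells before lysis moves such genes, and its part in the level of Dusp1 was not tested.

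Fkbp5, an immunophilin that lowers the affinity of the receptor for hormone, was at 1023 in PLZFlu/lu, 1162 in PLZF+/lu and 1269 in PLZF+/+ cells. It was 1.24-fold lower in PLZFlu/lu (-0.31), opposite to Tsc22d3 and Sgk1. Per1, a repressor of the circadian clock with glucocorticoid-driven transcription, was at 713 in PLZFlu/lu, 803 in PLZF+/lu and 734 in PLZF+/+, and its highest value was that of the heterozygote. Ddit4, which encodes the mTORC1 inhibitor REDD1 and is induced by glucocorticoids, hypoxia and energy stress, was at 2890 in PLZFlu/lu and 2848 in both other genotypes. The known targets thus included genes higher, lower and nearly level in PLZFlu/lu on the same arrays.

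**Figure D3:**
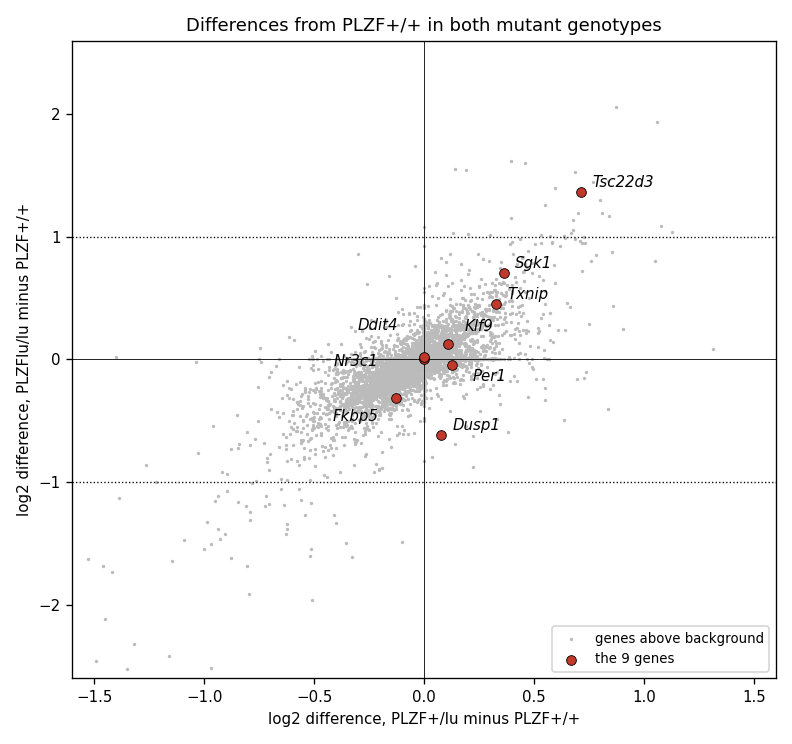
Log2 differences from PLZF+/+ in PLZF+/lu (horizontal) and in PLZFlu/lu (vertical) for genes above background (grey, 4 outside the axes) and the 9 genes (red). Dotted lines mark 2-fold; Tsc22d3 at 0.71 and 1.37 lies past the upper line, and Dusp1 lies below 0 on the vertical axis alone, at -0.62.

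PLZF+/lu lay strictly between the homozygotes for 5 of the 9 genes, Tsc22d3, Sgk1, Txnip, Klf9 and Fkbp5, against 17.4% of the genes above background. That share counts genes with equal values in the homozygotes, where nothing can lie between, and among the 6617 genes above background that differed between PLZFlu/lu and PLZF+/+ it was 31.6%. The 9 genes were picked with such values known, so nothing is read from their count. On a scale with PLZF+/+ at 0 and PLZFlu/lu at 1, PLZF+/lu was at 0.52 for Tsc22d3, 0.51 for Sgk1, 0.72 for Txnip, 0.86 for Klf9 and 0.41 for Fkbp5. Nr3c1 and Ddit4 had equal values in PLZF+/lu and PLZF+/+, and Dusp1 and Per1 were highest in PLZF+/lu. Between PLZFlu/lu and PLZF+/lu, 2 of the 9 genes, Tsc22d3 and Dusp1, were past 1.5-fold, against 0.533% of all named genes. Between PLZF+/lu and PLZF+/+ it was 1 of 9, Tsc22d3, against 0.794%. The 3 comparisons share arrays and are not independent.

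The 5 genes nearest to Tsc22d3 in the pair of log2 differences from PLZF+/+ were Gpr171, Stat4, Atxn1, Bach2 and Fgl2, at distances of 0.10 to 0.16, out of 11972 genes above background. Bach2, a repressor of effector genes, was at 1231 in PLZFlu/lu, 801 in PLZF+/lu and 449 in PLZF+/+. Stat4 transmits signals of the cytokine IL-12, and it was at 1933 in PLZFlu/lu, 1373 in PLZF+/lu and 787 in PLZF+/+. Likeness here rests on 3 arrays and many genes, and says nothing of shared control.

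3 genes that handle the hormone were past 1.5-fold, and all were higher in PLZFlu/lu. Abcb1a and Abcb1b encode the mouse forms of P-glycoprotein, a pump that carries corticosteroids and many drugs out of cells. Abcb1b was at 268 in PLZFlu/lu, 213 in PLZF+/lu and 119 in PLZF+/+, a 2.25-fold difference between the homozygotes, and the PLZF+/+ value lies near background. Abcb1a was at 408 in PLZFlu/lu, 405 in PLZF+/lu and 192 in PLZF+/+, so that both genotypes with a lu allele stood 2.13-fold and 2.11-fold above PLZF+/+. Hsd11b1, which regenerates active hormone from its inert keto form within cells, was at 1060 in PLZFlu/lu, 838 in PLZF+/lu and 691 in PLZF+/+, or 1.53-fold higher in PLZFlu/lu. Other genes that handle the hormone were level. H6pd was at 981 in PLZFlu/lu, 981 in PLZF+/lu and 969 in PLZF+/+. Hsd11b2, near background, and Cyp11a1 and Cyp11b1, below it, had equal values in the homozygotes. All belong to a list of 28 genes of receptor chaperones, cofactors and hormone handling. Of the 25 measured, 7 were higher, 9 lower and 9 equal in PLZFlu/lu, with a median of 0.00. Past 1.5-fold were 3, beside 1.43% of all named genes, and past 2-fold 2, beside 0.430%. The list was chosen with earlier results of these arrays known, so nothing is read from these counts. With 32 added to each intensity neither Abcb1a nor Abcb1b was past 2-fold, the log2 difference being 0.98 for Abcb1a and 0.99 for Abcb1b.

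Among chaperones of the receptor, several had lower values in PLZFlu/lu. Stip1, the adaptor that passes the receptor between the Hsp70 and Hsp90 machines, was at 2323 in PLZFlu/lu, 2499 in PLZF+/lu and 3382 in PLZF+/+ cells (-0.54). Fkbp4, the immunophilin that takes the place of Fkbp5 when hormone binds, was at 781 in PLZFlu/lu, 729 in PLZF+/lu and 1013 in PLZF+/+ (-0.37). Ptges3, the co-chaperone p23, was at 1470 in PLZFlu/lu, 1361 in PLZF+/lu and 1635 in PLZF+/+. Hsp90aa1 had the same value, 3153, on all 3 arrays. Of 13 FKBP immunophilins measured, 8 were lower, none higher and 5 equal in PLZFlu/lu, with a median of -0.05, and none was past 1.5-fold. Among all named genes 24.9% were lower and 16.9% higher. Of the 9 immunophilins above background 7 were lower and 2 equal. Among all genes above background 35.7% were lower and 19.6% higher.

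Heat shock proteins of the cytosol and chaperones of the endoplasmic reticulum are induced when unfolded proteins build up, and members with large differences, picked after their values were seen, are given first. Hsph1, a nucleotide exchange factor of Hsp70, was at 591 in PLZFlu/lu, 606 in PLZF+/lu and 1127 in PLZF+/+. Ahsa1, an activator of Hsp90, was at 971 in PLZFlu/lu, 956 in PLZF+/lu and 1359 in PLZF+/+. Sdf2l1, a stress-induced protein of the endoplasmic reticulum, was at 596 in PLZFlu/lu, 753 in PLZF+/lu and 1494 in PLZF+/+, 2.51-fold lower in PLZFlu/lu than in PLZF+/+. Hspa5, which encodes the chaperone BiP, was at 3436 in PLZFlu/lu, 3772 in PLZF+/lu and 4981 in PLZF+/+. Hsp90b1, which encodes the Hsp90 relative GRP94, was at 2683 in PLZFlu/lu, 2589 in PLZF+/lu and 3791 in PLZF+/+. Creld2 was at 706 in PLZFlu/lu, 759 in PLZF+/lu and 1174 in PLZF+/+. Pdia6, a disulfide isomerase, was at 670.4 in PLZFlu/lu, 673 in PLZF+/lu and 1005 in PLZF+/+. Of 31 measured genes of the integrated stress and unfolded protein responses, 19 were lower and 4 higher in PLZFlu/lu, with a median of -0.14. The kinase gene Eif2ak3 was an exception, at 1630 in PLZFlu/lu, 1417 in PLZF+/lu and 1073 in PLZF+/+. Hspa1a, an inducible Hsp70, was higher, at 171 in PLZFlu/lu, 171 in PLZF+/lu and 139 in PLZF+/+ (0.30). Of 22 heat shock genes, 10 were lower, 3 higher and 9 equal, with a median of 0.00, and all 10 lower genes were among the 19 above background. Among all genes above background 35.7% were lower.

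For many genes of these lists the difference was not divided evenly between the lu alleles as it was for Tsc22d3. PLZF+/lu lay strictly between the homozygotes for 12 of the 31 genes of the unfolded protein list and 5 of the 22 heat shock genes. These lists hold 8 and 9 genes with equal values in the homozygotes, where nothing can lie between. The share was 17.4% of all genes above background and 31.6% of those that differed between the homozygotes. The lists were chosen with earlier results known, so nothing is read from these counts. Sdf2l1, Hspa5 and Creld2 were among the genes in between, with PLZF+/lu at 0.75, 0.75 and 0.86 on the scale used above. Of the 19 genes lower in the unfolded protein list, PLZF+/lu was nearer to PLZFlu/lu than to PLZF+/+ for 15, and of the 10 lower heat shock genes for 8. The same was true of 69.3% of all 4274 lower genes above background, so the PLZF+/+ array stands apart for many lower genes besides those of these lists. Of the higher genes above background, 49.5% had PLZF+/lu nearer to PLZFlu/lu. With 1 array per genotype, the genotype and the array cannot be told apart.

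**Figure D4:**
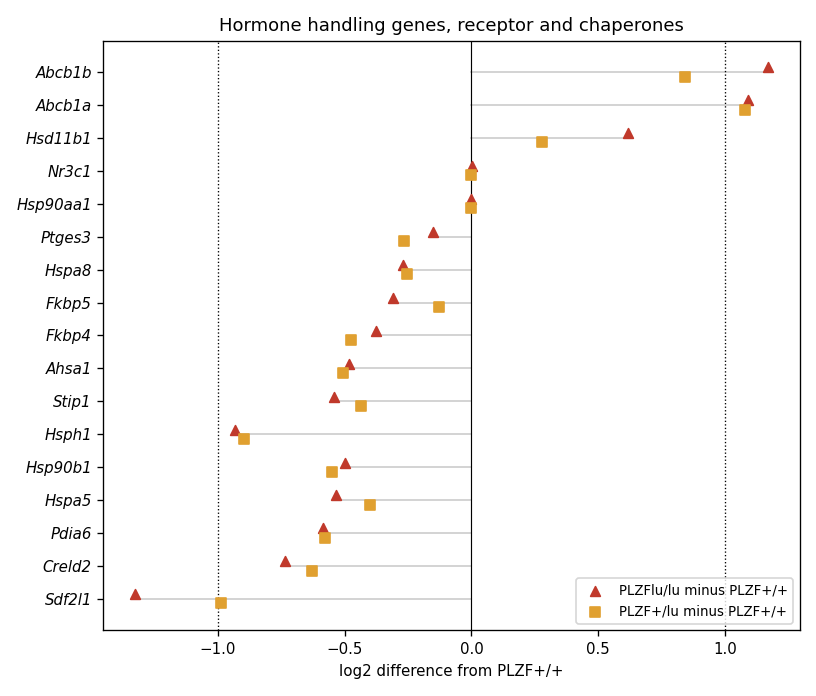
Log2 differences from PLZF+/+ for hormone handling genes, the receptor, chaperones of the cytosol and chaperones of the endoplasmic reticulum, as triangles for PLZFlu/lu and squares for PLZF+/lu, with dotted lines at 2-fold. For Hsph1 (-0.93 and -0.90) and Pdia6 (-0.58 and -0.58) both symbols nearly coincide, while those of Fkbp5 (-0.31 and -0.13) lie apart.

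Of 37 other glucocorticoid-induced genes, 10 were higher, 10 lower and 17 equal in PLZFlu/lu, with a median of 0.00. Shares over all named genes were 16.9% higher and 24.9% lower. Past 2-fold among the 37 was only Zbtb16, itself induced by glucocorticoids in several tissues and here the mutated gene. It was at 2890 in PLZFlu/lu, 6143 in PLZF+/lu and 8796 in PLZF+/+. Tgfbr3, a co-receptor for TGF-β, was at 788 in PLZFlu/lu, 963 in PLZF+/lu and 995 in PLZF+/+. Bcl2l11, which encodes the death protein BIM and is induced in thymocytes treated with glucocorticoids, was at 368 in PLZFlu/lu, 399 in PLZF+/lu and 368 in PLZF+/+. Il7r, the IL-7 receptor chain, was at 12140 in PLZFlu/lu, 12913 in PLZF+/lu and 11857 in PLZF+/+. The metallothionein genes Mt1 and Mt2 are sensitive reporters of the hormone in liver. Mt1 lay close to background, at 115 on all arrays. Mt2 lay below background, at 68.2 in PLZFlu/lu, 61.4 in PLZF+/lu and 61.4 in PLZF+/+.

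Relatives of the 9 genes differed among themselves in direction and size. Tsc22d1 and Tsc22d4 differed by 0.05 and 0.03, and Sgk3 was lower in PLZFlu/lu, at 1511 in PLZFlu/lu, 1824 in PLZF+/lu and 2149 in PLZF+/+ (-0.51), opposite to Sgk1. Among 17 Krüppel-like factors, 6 were higher, 6 lower and 5 equal, and Klf3 was past 1.5-fold in the direction of Klf9, with a larger difference (0.93), at 2399 in PLZFlu/lu, 1936 in PLZF+/lu and 1260 in PLZF+/+. Among 17 MAP kinase phosphatases and feedback inhibitors, 5 were higher and 5 lower. Dusp5, a phosphatase of ERK, was at 373 in PLZFlu/lu, 431 in PLZF+/lu and 664 in PLZF+/+ (-0.83), lower in PLZFlu/lu like Dusp1. Dusp6, which also acts on ERK, was at 976 in PLZFlu/lu, 663 in PLZF+/lu and 783 in PLZF+/+. Arrdc4, a relative of Txnip that is induced by glucose through the same MondoA factor, was at 202 in PLZFlu/lu, 203 in PLZF+/lu and 265 in PLZF+/+, opposite in direction to Txnip. Of 30 genes of the arrestin, thioredoxin and redox list, 14 were lower and 3 higher, all of them among the 26 above background. Of all genes above background 35.7% were lower and 19.6% higher, and of all named genes 24.9% and 16.9%.

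Of 19 clock genes, 9 were lower, 2 higher and 8 equal in PLZFlu/lu, with a median of 0.00. Of the 15 above background 8 were lower and 2 higher, beside 35.7% lower and 19.6% higher among all genes above background. Arntl, an activator of the clock, was at 624 in PLZFlu/lu, 682 in PLZF+/lu and 835 in PLZF+/+. Ciart, a clock repressor, was at 308 in PLZFlu/lu, 402 in PLZF+/lu and 420 in PLZF+/+. Per2, the nearest relative of Per1, was at 213 on all 3 arrays. Among 24 genes of the mTORC1 pathway, where REDD1 acts, 7 were higher and 9 lower, and the largest difference was that of Sesn1 at 0.28. Of 26 hypoxia genes 3 were higher and 10 lower, and of 17 genes of the p53 response 4 were higher and 4 lower. None of these 4 lists had a member past 1.5-fold. Of all named genes 24.9% were lower and 16.9% higher in PLZFlu/lu.

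**Figure D5:**
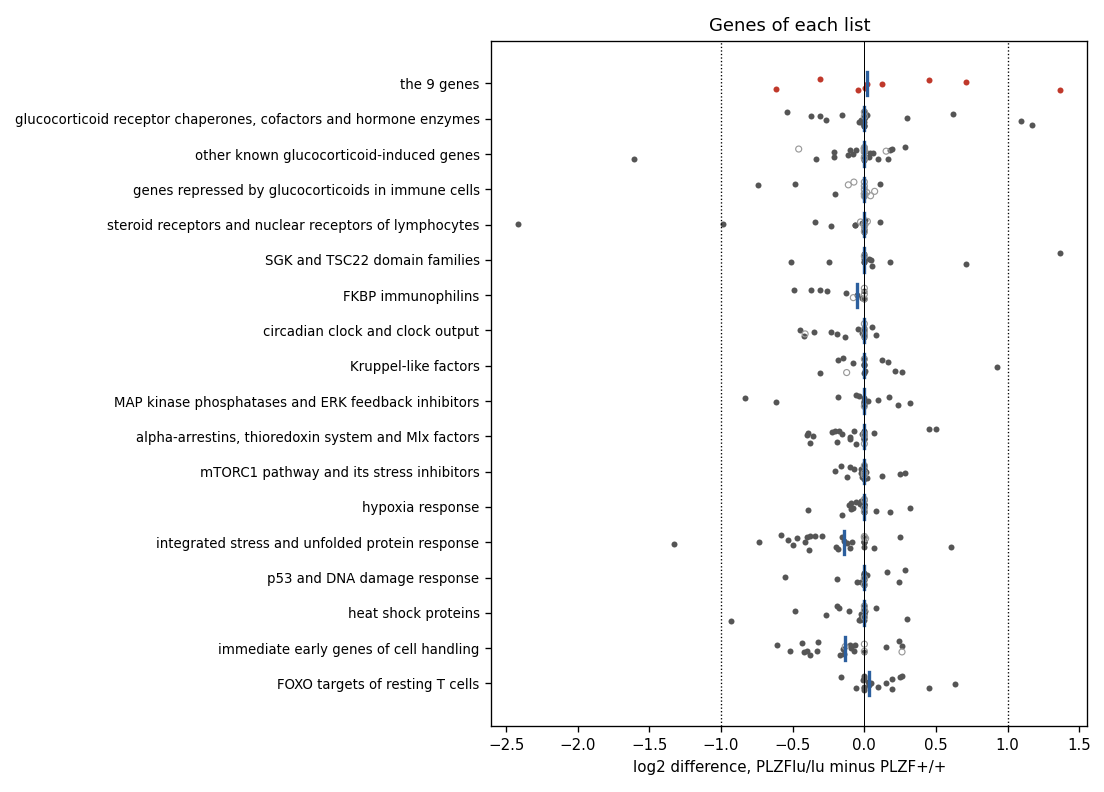
Log2 difference between PLZFlu/lu and PLZF+/+ for each measured gene of 18 lists (filled, above background on at least 1 array; open, at or below it), with list medians as blue bars and dotted lines at 2-fold. The medians lie at or near 0, apart from -0.14 for the integrated stress and unfolded protein list and -0.13 for immediate early genes.

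Pooled over the 17 lists and without the 9 genes, 327 genes were measured, of which 64 were higher, 136 lower and 127 equal in PLZFlu/lu. Past 2-fold were 5 of them, Abcb1a and Abcb1b higher and Zbtb16, Rora and Sdf2l1 lower, and 15 (4.59%) were past 1.5-fold, beside 1.43% of all named genes. Of the 266 above background 15 (5.64%) were past 1.5-fold, or 14 of 265 (5.28%) without the mutated gene Zbtb16, beside 2.23% of all genes above background. The lists were chosen with earlier results of these arrays known, so nothing is read from these shares.

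Markers of CD8+ and CD4+CD8+ thymocytes had the same genotype order as Tsc22d3 in their summed intensity, of which Cd8b1 was the largest part. Of 9 measured, 6 were higher in PLZFlu/lu, none lower and 3 equal, with a median of 0.28. Of the 6 higher genes only 3 had PLZF+/lu between the homozygotes as Tsc22d3 did. The others, Cd24a, Dntt and Rag1, were lower in PLZF+/lu than in PLZF+/+. This list holds Rag1, which all 3 genotypes lacked and whose probe set was at 278 in PLZFlu/lu, 211 in PLZF+/lu and 229 in PLZF+/+. Without it 5 of 8 were higher and 3 equal, with a median of 0.33 and sums of 6040 in PLZFlu/lu, 4981 in PLZF+/lu and 3832 in PLZF+/+. With it the summed intensity was 6318 in PLZFlu/lu, 5192 in PLZF+/lu and 4061 in PLZF+/+ cells. Cd8b1 was at 2958 in PLZFlu/lu, 2263 in PLZF+/lu and 1290 in PLZF+/+. Cd8a was at 601 in PLZFlu/lu, 519 in PLZF+/lu and 369 in PLZF+/+, in cells gated as CD8α negative. Cd24a, high on immature thymocytes, was at 361 in PLZFlu/lu, 207 in PLZF+/lu and 213 in PLZF+/+, and the pre-TCR gene Ptcra was at 167 on all arrays. Their part in the levels of Tsc22d3, Sgk1 and Txnip was not tested. Of 13 markers of macrophages, monocytes and neutrophils 11 had equal values in PLZFlu/lu and PLZF+/+, with sums of 1254 in PLZFlu/lu, 1301 in PLZF+/lu and 1279 in PLZF+/+. Of these 13 markers 4 were above background on at least 1 array. Cd68 was at 386 on each array, and Itgam at 139 in PLZFlu/lu, 152 in PLZF+/lu and 164 in PLZF+/+. Lyz2, Csf1r and Cd14 lay below background at 69.1, 72.5 and 46.0 on each array. Of 14 markers of epithelium and stroma 2 were higher, 2 lower and 10 equal. Their sums were 4397 in PLZFlu/lu, 4476 in PLZF+/lu and 4493 in PLZF+/+, of which Pecam1, at 2643 on each array, was the largest part. Pdgfrb was the 1 marker of that list past 1.5-fold, at 202 in PLZFlu/lu, 265 in PLZF+/lu and 324 in PLZF+/+ (-0.68). Of 10 T lineage markers 8 were higher in PLZFlu/lu, 1 lower and 1 equal, with a median of 0.01. Of 7 B cell markers 1 was higher, 1 lower and 5 equal, with sums of 1804 in PLZFlu/lu, 1832 in PLZF+/lu and 2049 in PLZF+/+. The lower marker was Cd79b, the largest part of these sums, at 1406 in PLZFlu/lu, 1440 in PLZF+/lu and 1658 in PLZF+/+. Ms4a1, Cd79a, Ebf1 and Blnk lay below background. Of 8 dendritic cell markers 2 were higher, 2 lower and 4 equal, and of 5 erythroid markers none was higher, 2 were lower and 3 equal. Beside these marker counts, 16.9% of all named genes were higher, 24.9% lower and 58.1% equal.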

How the data were processed

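RNA was measured in CD4+CD8α− thymocytes on Affymetrix Mouse Gene ST arrays, 1 for each genotype. The authors processed the scans with GenePattern modules, left out the normalization control probe sets, and deposited linear intensities for 24800 probe sets. The submitters' notes name the build mm8, and the sources used here do not give the summarisation or the scaling. Of the probe sets, 21065 have 1 annotated gene, 1187 several and 2548 none listed, and symbols of 20983 were updated through gene identifiers to RefSeq (GRCm38.p6). A gene with several probe sets was given by the one with the highest mean log2 intensity. Values counted as equal where their log2 difference was under 1e-06.

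No test was run, as there is 1 array per genotype. The members and lists were chosen with earlier results of these data known. Named genes are the 9 genes, list members past 2-fold and the 5 nearest to Tsc22d3. Where fewer than 2 genes of a list were past 2-fold, the pair with the largest differences was set to be named, but not all of these are given. Other genes, among them Fos, Dusp6, Sgk3, Arrdc4, Klf2, Foxo1, relatives, chaperones and markers, were chosen after their values were seen. Promoter windows were matched by symbol. Alternatives were quantile normalization, median centring, cyclic loess, adding 32 to each intensity, averaging probe sets, leaving out dim ones, and the mean of PLZF+/+ and PLZF+/lu as the wild-type arm. Python 3.11.15 with numpy 2.4.6 and pandas 2.3.3, and limma 3.58.1 in R 4.3.3 served for the calculations. Counts over genes that differ, over list genes above background and without Zbtb16 or Rag1 were added after seeing the data. A count past 1.5-fold was tried on simulated arrays with known folds and no values repeated between arrays. Counts of equal genes and of PLZF+/lu between the homozygotes were not tried in this way. The other assays of the study were not analysed here.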

Additional observations from a re-analysis of the deposited data

How the results depend on the processing

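No paired analysis was possible because each genotype has 1 array, and for the same reason no array could be left out. With no replicates, a log2 difference was taken as unchanged when it moved by less than 0.1, and a count when it stayed within 1.5 times. Among the 9 genes, 8 kept their direction under every alternative, while Per1 was at 0.00 after quantile normalization, against -0.04 as deposited. When PLZF+/lu and PLZF+/+ were averaged as the wild-type arm, the log2 differences were 1.01 for Tsc22d3, 0.53 for Sgk1 and 0.29 for Txnip, so that Sgk1 was below 1.5-fold. These shrink by construction, since PLZF+/lu lay between. Of the 327 other list genes, 6 were then past 1.5-fold in place of 15 and 2 past 2-fold in place of 5. With 32 added to each intensity, 3 were past 2-fold, Abcb1a and Abcb1b no longer being among them. Of 91 values recomputed for these results, 85 stayed within those bounds. The median over all named genes moved by less than 0.1 under each scaling.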

Other observations

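Of 19 measured steroid and nuclear receptor genes, a list that includes Nr3c1, 8 were lower in PLZFlu/lu, 4 higher and 7 equal. Shares over all named genes were 24.9% lower and 16.9% higher. Rora, an orphan receptor of innate lymphocytes, was at 281 in PLZFlu/lu, 672 in PLZF+/lu and 1498 in PLZF+/+. Rxra, the shared partner of many nuclear receptors, was at 396 in PLZFlu/lu, 463 in PLZF+/lu and 785 in PLZF+/+, and its log2 difference of -0.99 lay just inside 2-fold. Nr3c2, the mineralocorticoid receptor, which also binds glucocorticoids, lay below background at 64.8 in PLZFlu/lu, 69.8 in PLZF+/lu and 63.9 in PLZF+/+.

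Of 19 measured FOXO targets of resting T cells, 11 were higher in PLZFlu/lu, 4 lower and 4 equal, with a median of 0.03. All 19 were above background, and of all genes above background 19.6% were higher and 35.7% lower. The list was chosen with earlier results known, so nothing is read from the count. The 4 lower genes were Rbl2 (-0.16), Irs2 (-0.06), Foxo3 (-0.01) and Trib1 (-0.01). Of the higher genes, 3 are given here. S1pr1, the receptor for thymic exit, was at 8144 in PLZFlu/lu, 6722 in PLZF+/lu and 5243 in PLZF+/+. Klf2, which drives it, was at 1819 in PLZFlu/lu, 1699 in PLZF+/lu and 1517 in PLZF+/+. Foxo1 itself was at 5967 in PLZFlu/lu, 5638 in PLZF+/lu and 5217 in PLZF+/+. Nfe2l2, the master regulator of the antioxidant response, was at 1957 in PLZFlu/lu, 1444 in PLZF+/lu and 1384 in PLZF+/+. Prdx1, a peroxiredoxin it induces, was at 1194 in PLZFlu/lu, 1070 in PLZF+/lu and 1574 in PLZF+/+.

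Of 16 genes that glucocorticoids repress in immune cells, 5 were lower in PLZFlu/lu, 4 higher and 7 equal. Shares over all named genes were 24.9% lower and 16.9% higher. Il13 was at 216 in PLZFlu/lu, 271 in PLZF+/lu and 303 in PLZF+/+, and Tnf, near background in PLZFlu/lu, at 101 in PLZFlu/lu, 124 in PLZF+/lu and 170 in PLZF+/+.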
